A study of Caenorhabditis elegans with 3 samples.

Results

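The Wnt genes described here are 10 genes of the nematode Caenorhabditis elegans: the ligand genes mom-2, cwn-1, cwn-2, lin-44 and egl-20, the Frizzled receptor genes mom-5 and lin-17, and the effector genes pop-1, lit-1 and wrm-1. They were taken by symbol from the array annotation, where 8 of the 10 had a row, 1 row each, out of 20000 rows and 15168 gene symbols. The genes lin-44 and lin-17 had no named row and were not analysed here. All 8 had a value on each of the 3 arrays, so none was lost to missing values.

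Each of the 3 two-colour arrays compared mRNA of adult hermaphrodites with a pool called a mixed wild-type reference, whose composition the labels do not give. The adults are marked TP12 and "w/ emb 3", which is read here as adults carrying embryos, and they came as preparations 1 to 3, here replicates 1 to 3. No treatment, age in hours or allele is stated, and nothing says whether the preparations were separate cultures, so the spread between them may be technical. A whole adult holds soma, germ line and the embryos inside it, and in such bulk RNA fewer cells of a type and less RNA per cell cannot be told apart.

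Wnt proteins are secreted signals that bind Frizzled receptors and, through Dishevelled proteins, change the activity of beta-catenins and of the transcription factor TCF. In the worm MOM-2 and MOM-5, with the beta-catenin WRM-1, the Nemo-like kinase LIT-1 and the TCF protein POP-1, polarise an early blastomere so that it makes endoderm, and these components are supplied to the embryo by the mother. EGL-20, LIN-44, CWN-1 and CWN-2 act later, in cell migration, axon guidance and the polarity of larval cells.

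Values are log2 ratios of the channels, so 1 unit is a doubling and 0 means the same relative level in adults and reference. The ratio is relative to the centre of each array and says nothing of how abundant a transcript is. Its direction is not stated in the labels and is called likely adults over reference, from the channel order and from markers. Of 11 oocyte and eggshell genes 10 were higher, with a median of 1.35, and of 9 moulting genes 5 were lower and 0 higher, with a median of -0.73. Of the other marker lists, 10 of 10 sperm genes were lower, 4 of 7 neuronal and 1 of 6 body wall muscle genes were lower with 0 higher, and 1 of 3 yolk genes was higher. Of 7 genes listed as early zygotic 1 was higher, pal-1 at 0.75, and 1 lower, med-1 at -0.62, with a median of -0.18. Over all genes tested 14.8% were higher and 13.7% lower. Here and below, all genes means 19293 entries, of which 15112 carry a gene symbol. The rest are single rows with no symbol or with several. The marker lists were chosen with earlier results of these data known, so they are not an independent check of the direction. Under the opposite direction every "higher" and "lower" here would be exchanged. Over all rows replicates 2 and 3 correlated at 0.892, while replicate 1 correlated with them at 0.676 and 0.658, so replicate 1 stands apart. Where leaving it out changed a call or moved a mean by over 1.5 times, the mean without it is given. This holds for members and other Wnt pathway genes whose mean is stated, and not for marker genes.

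The ligand gene mom-2, the Frizzled gene mom-5 and the TCF gene pop-1 were higher in adults than in the reference. The ligand gene egl-20 was lower, and cwn-1, cwn-2, lit-1 and wrm-1 did not pass the test. In limma's fit over 19293 genes (Benjamini-Hochberg adjusted p under 0.05), 3 of 8 were higher, where 14.8% of all genes were, and 1 of 8 was lower, where 13.7% were. Without replicate 2 the count of higher members was 1. The ratio was positive on all 3 arrays for 4 of 8, against 30.1% of all genes, and negative on all 3 for 1 of 8, against 27.2%. The median of the 8 was 0.22, and that of all genes tested was 0.02. With counts this small the shares are a description of these genes.

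Of the ligands, mom-2 had the largest positive ratio, which would be the most negative if the ratio ran the other way. Its ratio was 1.56 on the array of replicate 1, 1.28 on that of replicate 2 and 1.21 on that of replicate 3. The arrays lay close together and well above 0. The mean was 1.35 ± 0.18 (SD, n = 3), which is 2.55-fold higher in adults (95% interval of the log2 ratio 1.01 to 1.68, adjusted p = 0.000628, limma). Oocyte and eggshell markers, whose defining genes are made in the germ line, were also higher, and their medians on the same arrays were 1.62, 1.25 and 1.35. Their 11 means ran from -0.10 for egg-1 to 1.92 for cbd-1, and their part in the ratio of mom-2 was not tested.

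The ligand gene egl-20, known for guiding the migrating descendants of the Q neuroblasts from cells of the tail region, went the other way. It stood at -0.53 in replicate 1, -1.47 in replicate 2 and -1.72 in replicate 3. All arrays were below 0, with replicate 1 nearest to it. The mean was -1.24 ± 0.63 (SD, n = 3), or 2.36-fold lower in adults (95% interval -1.77 to -0.72, adjusted p = 0.00546, limma). The SD was larger than that of 96.1% of genes, and leaving out replicate 1 gave a mean of -1.60 (adjusted p = 8.54e-05, limma). Neuronal markers had medians of -1.04, -1.46 and -0.85 on the same arrays, with 4 of 7 lower and means from -1.59 for unc-13 to 0.21 for unc-31. Other lists were lower too. Sperm markers had medians of -1.72, -2.32 and -1.53 with 10 of 10 lower, and moulting markers -0.57, -0.89 and -0.31 with 5 of 9 lower. The part of any of these lists in the ratio of egl-20 was not tested.

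The ligand genes mom-2 and egl-20 are the highest and lowest of the 8, so a large difference between them follows from the choice of the pair, and it is given as a description. Subtracting egl-20 from mom-2 array by array gave 2.09 in replicate 1, 2.76 in replicate 2 and 2.92 in replicate 3, a mean of 2.59 ± 0.44 (SD, n = 3). This compares each gene's change against its own level in the reference and not the amounts of the transcripts.

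The ligand genes cwn-1 and cwn-2 lay between them. CWN-1 and CWN-2 act partly in parallel with other Wnts in cell migration and in neurite growth. The ratio of cwn-1 was 0.24, 0.58 and 0.26 in replicates 1, 2 and 3, positive on every array, with a mean of 0.36 ± 0.19 (SD, n = 3) and an adjusted p of 0.106 in limma. Leaving out replicate 1 gave 0.42, which passed (adjusted p = 0.0340, limma, 0.0206 to 0.561 over all alternatives). The arrays gave cwn-2 a ratio of 0.25 (replicate 1), -0.07 (replicate 2) and -0.09 (replicate 3), which straddles 0. Its mean was 0.03 ± 0.19 (SD, n = 3), the 95% interval ran from -0.30 to 0.37 and the adjusted p was 0.896 (limma). Without replicate 1 its mean was -0.08.

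The receptor gene mom-5 encodes the Frizzled that receives the MOM-2 signal in the early embryo. Replicate 1 gave a ratio of 0.57, replicate 2 of 0.89 and replicate 3 of 0.49. All arrays were above 0, and replicate 2 was the highest. The mean was 0.65 ± 0.21 (SD, n = 3), or 1.57-fold higher in adults (95% interval 0.31 to 0.99, adjusted p = 0.0137, limma). Without replicate 2 the mean was 0.53 and did not pass (adjusted p = 0.130, limma, 0.000643 to 0.173 over all alternatives).

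Of the effector genes pop-1 passed and lit-1 and wrm-1 did not, and the differences among them were not tested. POP-1, the worm TCF, represses or activates Wnt targets according to its level in the nucleus and its bound beta-catenin. For pop-1 replicate 1 gave a ratio of 0.03, replicate 2 of 1.33 and replicate 3 of 0.84. Replicate 1 was near 0 and the other arrays clearly above it. The mean was 0.73 ± 0.66 (SD, n = 3), with a 95% interval of 0.19 to 1.27 and an adjusted p of 0.0498 in limma, just inside the threshold. The SD was larger than that of 97.0% of genes. The mean was 1.09 when replicate 1 was left out (adjusted p = 0.000847, limma), 0.43 when replicate 2 was (0.262) and 0.68 when replicate 3 was (0.0634), so the call depends on which arrays are used. Centring the arrays on their medians gave an adjusted p of 0.0547, and testing genes measured on 2 arrays as well gave 0.0602 (limma).

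The genes lit-1 and wrm-1 encode partners, since WRM-1 binds the kinase LIT-1 and together they drive POP-1 out of the nucleus. The ratio of lit-1 was 0.19, 0.17 and -0.12 in replicates 1, 2 and 3. These values scatter about 0. The mean was 0.08 ± 0.17 (SD, n = 3), with a 95% interval of -0.25 to 0.41 and an adjusted p of 0.738 in limma, and without replicate 1 it was 0.024. For wrm-1 replicate 1 gave -0.59, replicate 2 0.06 and replicate 3 -0.46. Replicate 2 stood apart from the negative values of the other arrays. The mean was -0.33 ± 0.34 (SD, n = 3), with a 95% interval of -0.72 to 0.06 and an adjusted p of 0.192 in limma. Leaving out replicates 1, 2 and 3 in turn gave means of -0.20, -0.52 and -0.26.

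**Figure D1:**
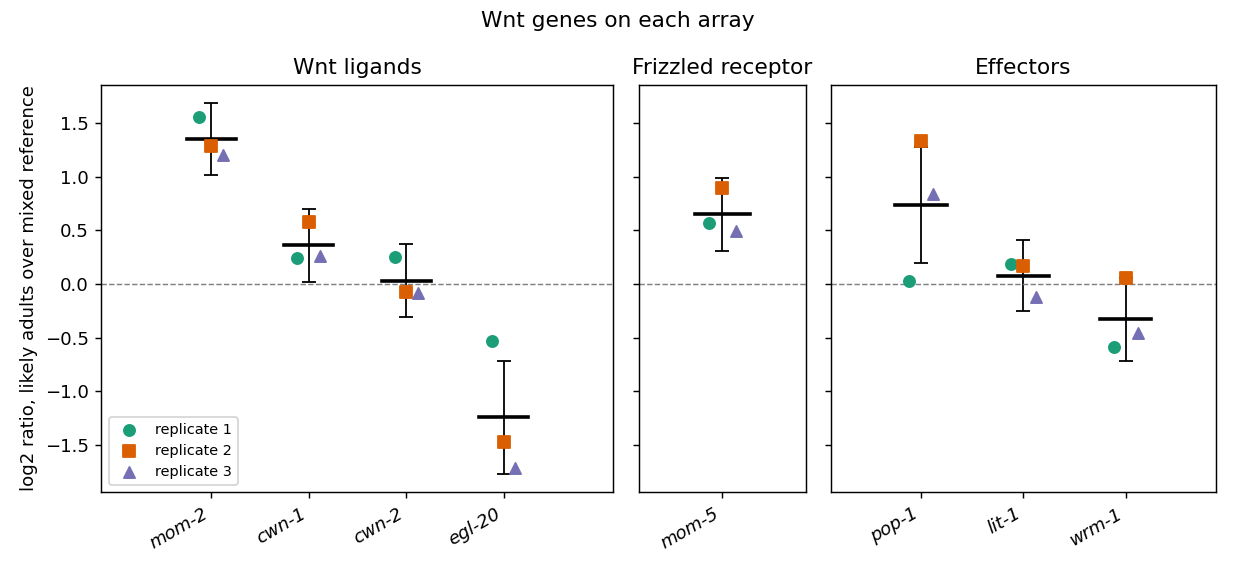
Log2 ratio (likely adults over mixed reference) of the 8 measured Wnt genes, by role. Symbols are the 3 arrays, thick bars the means and thin bars the 95% intervals of limma's fit. All arrays of mom-2 lie above 1.2 and all of egl-20 below -0.5, while the arrays of pop-1 run from 0.03 to 1.33.

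In order of their mean ratio the genes ran mom-2, pop-1, mom-5, cwn-1, lit-1, cwn-2, wrm-1 and egl-20. Of the 7 steps between neighbours in that order, only that from cwn-1 down to lit-1 had array values that did not overlap, with cwn-1 at no less than 0.24 and lit-1 at no more than 0.19. Taken array by array, mom-5 also exceeded cwn-1 on all 3, by 0.33, 0.32 and 0.23 in replicates 1, 2 and 3, and each of the other 5 steps turned round on at least 1 array. The mean of pop-1 exceeded that of mom-5 by 0.08, yet on the array of replicate 1 pop-1 was lower by 0.54.

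The rest of the pathway was read from 51 further genes in 5 role lists, of which 44 were tested. Of these 14 were higher and 3 lower (limma, same threshold), which is 31.8% and 6.82% where 14.8% and 13.7% of all genes were, and the median was 0.22. The counts of the role lists below stand against the same shares of all genes. The count of higher genes was 9 without replicate 2 or without replicate 3, and that of lower genes was 6, 0 and 1 without replicates 1, 2 and 3. The higher genes belonged to the secretion, cytoplasmic and nuclear lists. Of the receptor list none passed in limma, where 2 of 6 had an unadjusted p under 0.05, as had 7520 of all 19293 genes. Of the target list 1 of 13 was lower and 0 higher.

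**Figure D2:**
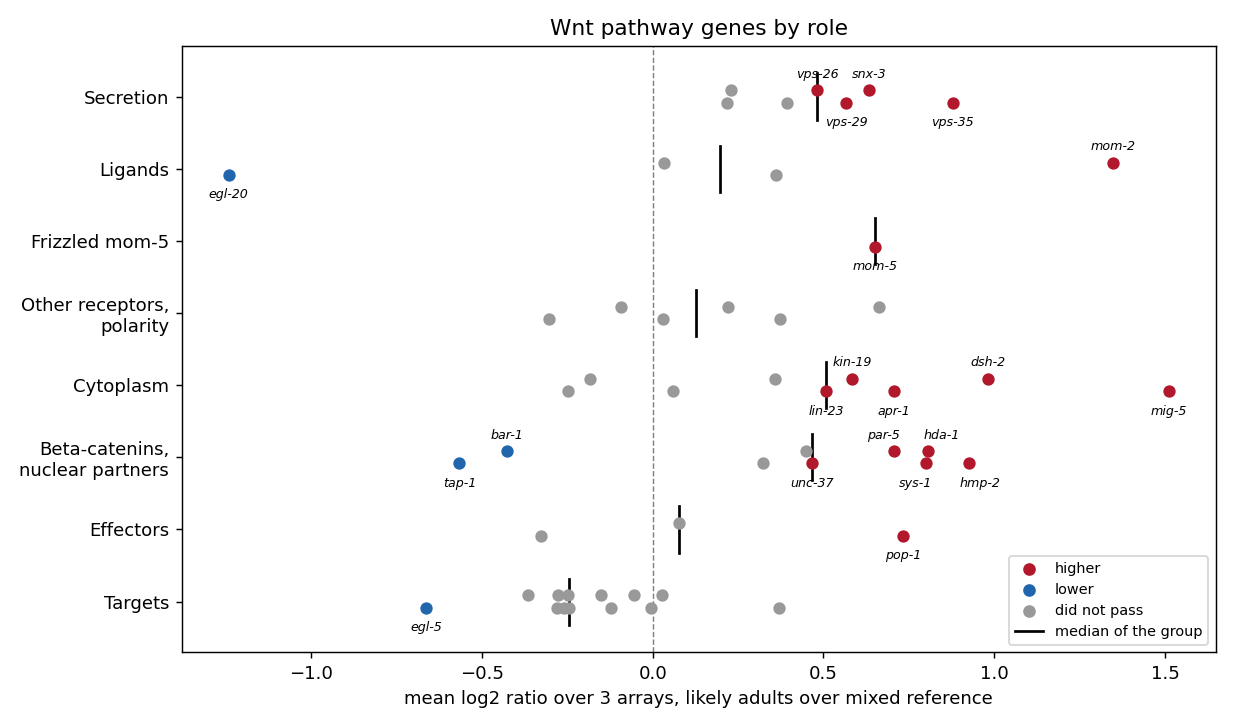
Mean log2 ratio over 3 arrays (likely adults over mixed reference) of 52 tested Wnt pathway genes, grouped by role from secretion at the top to targets at the bottom. Red points were higher, blue points lower and grey points did not pass, and black bars are group medians. The medians are 0.48 in the secretion row, 0.51 in the cytoplasm row, 0.47 in the row of beta-catenins and nuclear partners (which leaves out the effectors pop-1, lit-1 and wrm-1) and -0.24 in the target row.

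Genes of Wnt secretion lay on the positive side. In cells that send Wnt, the retromer returns the Wnt carrier from endosomes so that it can be used again. Of 7 tested secretion genes 4 were higher and 0 lower, with a median of 0.48 and all 7 means above 0. The genes mig-14 and mtm-9 of this list had no named row and were not tested. Over all genes 10016 of 19293 means were above 0. The retromer gene vps-35 stood at 0.79, 0.94 and 0.90 in replicates 1, 2 and 3, with a mean of 0.88 ± 0.08 (SD, n = 3, adjusted p = 0.00279, limma). Those arrays were close together. The sorting nexin gene snx-3, known to act with the retromer on the Wnt carrier, stood at 0.63 ± 0.18 (adjusted p = 0.0135, limma). The retromer gene vps-26 stood at 0.48 ± 0.18 (adjusted p = 0.0396, limma). Neither snx-3 nor vps-26 passed without replicate 2 or without replicate 3. The retromer gene vps-29, named after its value was seen, was just inside the threshold at 0.57 ± 0.41 (adjusted p = 0.0498, limma). Its arrays stood at 1.04, 0.35 and 0.31 in replicates 1, 2 and 3. Without replicate 1 it did not pass at 0.33 (adjusted p = 0.0558, limma), nor did it without replicate 2 (0.0529). The call was also lost with arrays centred, blocks of rows centred, genes with values on at least 2 arrays, and no moderation. The retromer also sorts many other cargoes, so these genes are not specific to Wnt. The gene mom-1 encodes the Porcupine acyltransferase that attaches lipid to Wnts, and it did not pass at 0.23 ± 0.14 (adjusted p = 0.277, limma). With array weights it passed at 0.31 (adjusted p = 0.0293, limma). It is singled out here after its value was seen. The array weights, here and below, were 0.28, 1.12 and 3.16 for replicates 1, 2 and 3, so replicate 3 counted most in such fits. Without replicate 2 the count of higher secretion genes was 1, and without replicate 3 it was 2.

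Of the 9 receptors and polarity genes listed besides the members, 6 were tested and none passed. The genes mig-1, sfrp-1 and plr-1 of this list had no named row, as the member lin-17 had none, so nothing is known of them here. The van Gogh homologue vang-1, a planar polarity gene, stood at 1.31 in replicate 1, 0.36 in replicate 2 and 0.31 in replicate 3. The value of replicate 1 was far above the others. The mean was 0.66 ± 0.57 (SD, n = 3, adjusted p = 0.0510, limma), just outside the threshold, and without replicate 1 it was 0.34. The Frizzled gene cfz-2 stood at 0.37 ± 0.26 (adjusted p = 0.114, limma) and lin-18, a Ryk-type Wnt receptor gene, at -0.30 ± 0.15 (adjusted p = 0.158, limma). Without replicate 1 both passed, at 0.46 for cfz-2 and -0.38 for lin-18, and with array weights both did, at 0.54 and -0.33. With blocks of rows centred cfz-2 passed at 0.44. Without replicate 2 or without replicate 3 vang-1 passed, at 0.81 and 0.84. It also passed with array weights, the trend and robust prior, blocks of rows centred and quantile normalization, at 0.39, 0.66, 0.58 and 0.65.

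Cytoplasmic genes were mostly positive, and the Dishevelled paralogues had unlike ratios. Each ratio is against the gene's own level in the reference, and the differences among the paralogues were not tested. Dishevelled proteins relay the signal from Frizzled, and APR-1, the worm APC protein, regulates beta-catenin. Of 9 tested genes 5 were higher and 0 lower, with a median of 0.51. The Dishevelled gene mig-5 stood at 2.32 in replicate 1, 1.26 in replicate 2 and 0.95 in replicate 3. All were well above 0, with replicate 1 the highest. The mean was 1.51 ± 0.72 (SD, n = 3, adjusted p = 0.00355, limma), and without replicate 1 it was 1.11. The Dishevelled gene dsh-2 stood at 0.86, 0.95 and 1.14, with a mean of 0.98 ± 0.14 (adjusted p = 0.00204, limma). The paralogue dsh-1 stood at -0.49, -0.15 and -0.11, with a mean of -0.25 ± 0.21 (adjusted p = 0.258, limma), and without replicate 1 it was -0.13. Its array values lay below all those of mig-5 and dsh-2. The ratio of apr-1 was 0.71 ± 0.12 (adjusted p = 0.00746, limma), and without replicate 3 it was 0.66 and did not pass (0.0615). The casein kinase gene kin-19 stood at 0.58 ± 0.27 (adjusted p = 0.0262, limma), and without replicate 3 its adjusted p was 0.0657. Without replicate 3 the count of higher cytoplasmic genes was 2. The genes dsh-1 and kin-19 are named after their values were seen.

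The beta-catenin genes also had unlike ratios, and the differences among them were not tested. The worm has separate beta-catenins for separate tasks: HMP-2 joins cadherin to the cytoskeleton, SYS-1 is a coactivator of POP-1, WRM-1 works with LIT-1, and BAR-1 acts in larval Wnt signalling. The ratio of hmp-2 was 0.93, 0.86 and 0.99 in replicates 1, 2 and 3, with a mean of 0.93 ± 0.07 (SD, n = 3, adjusted p = 0.00221, limma). The ratio of sys-1 was 0.37, 1.15 and 0.87, with a mean of 0.80 ± 0.40 (adjusted p = 0.0122, limma). As for pop-1, the partner gene, replicate 1 was the lowest and replicate 2 the highest, and without replicate 2 sys-1 did not pass at 0.62 (adjusted p = 0.0713, limma). The ratio of bar-1 was -0.48, -0.45 and -0.36, with a mean of -0.43 ± 0.06 (adjusted p = 0.0489, limma), and the call was lost in 6 of 11 alternatives. These were leaving out replicate 2 or replicate 3 (adjusted p = 0.262 and 0.232, limma), the trend and robust prior (0.0604), genes with values on at least 2 arrays (0.0512), 1 row for each symbol (0.0507) and no moderation (0.126). The gene is named after its value was seen. On each array hmp-2 and sys-1 lay above wrm-1 and bar-1.

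**Figure D3:**
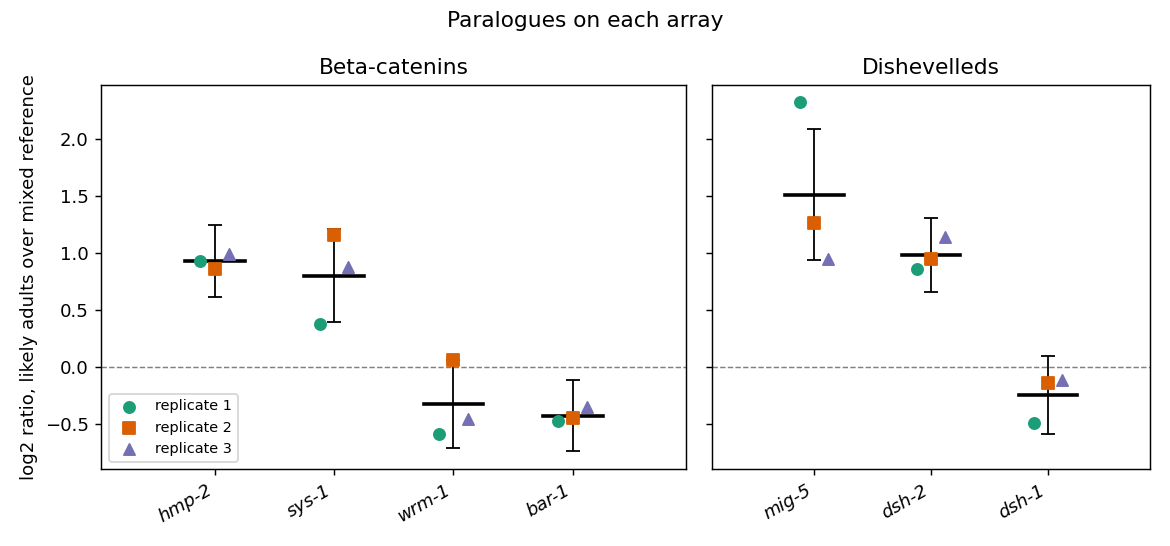
Log2 ratio (likely adults over mixed reference) of 4 beta-catenin genes and 3 Dishevelled genes. Symbols are the 3 arrays, thick bars the means and thin bars the 95% intervals of limma's fit. The means of hmp-2, sys-1, mig-5 and dsh-2 lie at 0.80 or more, and those of wrm-1, bar-1 and dsh-1 between -0.43 and -0.25.

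Among the nuclear list as a whole 5 of 9 tested genes were higher and 2 lower, with a median of 0.47. Without replicate 2 the counts were 3 and 0, and without replicate 3 the count of lower genes was 0. The histone deacetylase gene hda-1, whose protein acts with POP-1 in repression, stood at 0.80 ± 0.16 (SD, n = 3, adjusted p = 0.00485, limma). The gene tap-1, which encodes the activator of the kinase MOM-4 upstream of LIT-1, was lower at -0.57 ± 0.13 (adjusted p = 0.0191, limma). Without replicate 2 or without replicate 3 tap-1 did not pass, with adjusted p-values of 0.0680 and 0.108 in limma. The kinase gene mom-4 itself stood at 0.32 ± 0.09 (adjusted p = 0.123, limma) and is named after its value was seen. It passed at 0.37 without replicate 1 (adjusted p = 0.0360, limma) and at 0.37 with array weights (0.00851), and with blocks of rows centred it was 0.11. Many of these genes act outside Wnt signalling too, among them hda-1 and par-5, a 14-3-3 gene that stood at 0.71 ± 0.47 (adjusted p = 0.0271, limma). The value of par-5, also named after its value was seen, was 0.46 without replicate 1.

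Genes known as Wnt targets were mostly just below 0. Of 13 tested 1 was lower, 0 were higher and 12 did not pass, with a median of -0.24 and with 11 of 13 means negative. Over all genes 13.7% were lower and 48.1% of means were negative, so the share of lower targets was below that of all genes. The one that passed was egl-5, a Hox gene of posterior identity, at -0.90, -0.76 and -0.34 in replicates 1, 2 and 3. All its arrays were negative. Its mean was -0.66 ± 0.29 (SD, n = 3, adjusted p = 0.0168, limma), and without replicate 2 it did not pass at -0.62 (adjusted p = 0.0756, limma). The GATA factor gene egl-18 stood at 0.37 ± 0.14 (adjusted p = 0.0885, limma) and the zinc finger gene tlp-1 at -0.37 ± 0.39 (adjusted p = 0.170, limma). Without replicate 1 both passed, at 0.44 and -0.59, and with array weights both did, at 0.46 and -0.57. The Hox genes mab-5 and lin-39, known targets in the Q neuroblasts and the vulval precursors, stood at -0.28 ± 0.13 and -0.24 ± 0.23, and end-1, the endoderm GATA gene downstream of POP-1, at -0.25 ± 0.08. Their adjusted p-values in limma were 0.184, 0.277 and 0.224, and without replicate 1 lin-39 stood at -0.11. These 3 are named after their values were seen. Without replicate 1 the count of lower targets was 3, and without replicate 2 it was 0.

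**Figure D4:**
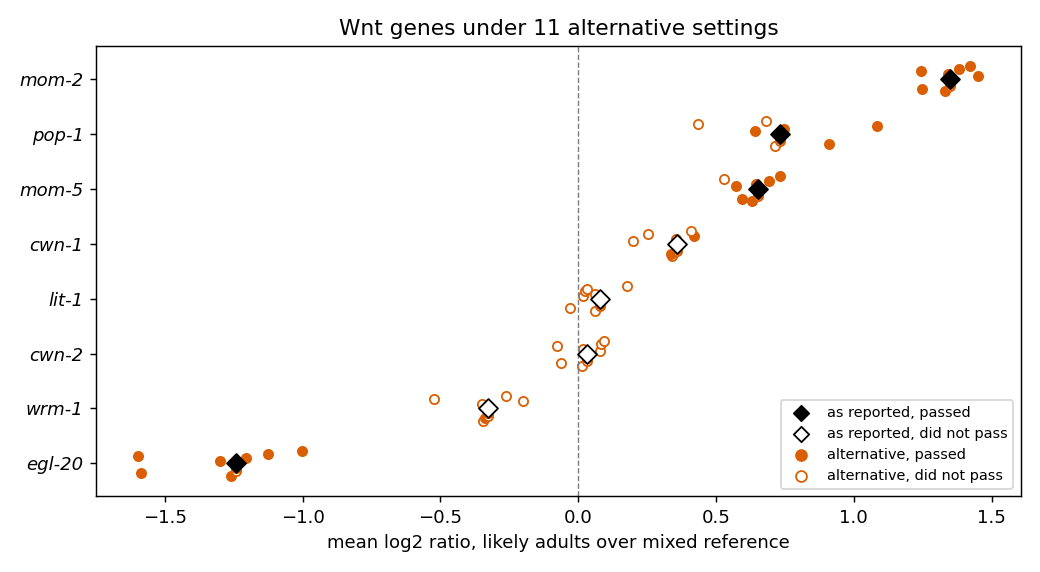
Mean log2 ratio (likely adults over mixed reference) of the 8 Wnt genes as reported (diamonds) and under 11 alternative settings (circles); filled symbols passed the threshold. The ratio of mom-2 stays between 1.25 and 1.45 and passes in 10 of 11, that of pop-1 runs from 0.43 to 1.09 and passes in 6 of 11. Changing the variance prior, the rule for missing values or the row of a symbol cannot move these ratios, only their adjusted p.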

How the data were processed

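The deposited table gives, for every row and array, a log2 ratio between channels. Base 2 was inferred from its values: raised from it, all 59554 linear ratios under 10 were multiples of 0.001 (to within 0.01 of that step). How the authors scanned the arrays, corrected background and normalised is not stated in the labels. Spot intensities were not used, and any compression of ratios would make changes look smaller. Rows were named from the platform annotation, with symbols updated through the RefSeq gene table of WBcel235 (names only, 15569 rows matched by gene identifier and 7 by accession), and rows of a symbol were averaged per array.

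Rows with no symbol or with several were kept as single entries and are counted as genes. The 19293 genes so counted and measured on every array, 15112 of them with a symbol, entered limma (version 3.58.1, under R 4.3.3). There lmFit and eBayes gave a two-sided test of the mean ratio against 0, with Benjamini-Hochberg adjustment over all of them. A sign-flip test of 3 values can give no p under 0.25, and the calls therefore lean on the variance shared across genes (prior of 5.86 degrees of freedom beside 2 residual ones). The number of arrays limits the precision. Tested on simulated data of 19293 genes, of which 200 were changed, the fit recovered 67.2% of changes of 1 on the log2 scale. Of those of 0.5 it recovered 2.8%. In the data many more genes were called, which makes the adjusted threshold less strict, and ratios as small as 0.42 passed. The simulated shares are therefore not the recovery in these data. The members, role lists and markers were chosen with earlier results of these data known. All measured members are named, with the 3 genes of smallest p of each role list and the leading gene of the other direction. Further genes are marked as named after their values were seen. Alternatives were array centring, array weights, the variance prior, missing values, the row of a symbol, 32 blocks of rows, quantile normalization and each replicate left out.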

Additional observations from a re-analysis of the deposited data

How the results depend on the processing

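Each ratio already pairs adults and reference on the same array, and no further pairing was possible because all arrays form 1 group. Without moderation of the variance 0 genes passed in either direction, members and pathway genes included, in limma's fit (4903 genes and 2 members at an unadjusted p under 0.05). With array weights 4874 genes were higher and 4413 lower, of the members 4 higher and 2 lower, and of the pathway genes 23 and 6. Leaving out a replicate gave 1796 to 4276 higher and 1687 to 3881 lower genes, 1 to 4 higher members, and 9 to 21 higher and 0 to 6 lower pathway genes. In these fits of 2 arrays 1 degree of freedom per gene is left beside the shared prior. The mean of cwn-2 turned to -0.061 with array weights and ran from -0.078 to 0.093 when a replicate was left out, and that of lit-1 turned to -0.030 with array weights. Of the 8 members mom-2 and egl-20 passed in 10 of 11 alternatives, mom-5 in 9, pop-1 in 6, cwn-1 in 2 and wrm-1 in 1. The causes of these shifts were not tested. Signal over background could not be judged from ratios.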

Other observations

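The kinase gene gsk-3, whose protein acts with APC and Axin on beta-catenin, had 2 rows that differed on the array of replicate 1. One row stood at -0.27, 0.51 and 0.45 in replicates 1, 2 and 3, and the other at 0.88, 0.39 and 0.19. Their average was 0.36 ± 0.08 (SD, n = 3, adjusted p = 0.0897, limma), a smaller spread than that of either row. Without replicate 1 the average passed at 0.38 (adjusted p = 0.0333, limma), and with array weights at 0.35 (0.0121). The Axin-like gene axl-1 ran from -0.62 in replicate 1 to 0.60 in replicate 2 and had an SD larger than 96.1% of genes, while the GATA factor gene elt-6 had -0.11, -0.13 and -0.13 and an SD larger than 0.187% of genes. These 3 genes were chosen after their values were seen.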
